A study of Mus musculus with 3 samples.

Results

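BMAL1 binding to the mouse liver genome was measured by ChIP-seq (sequencing of the DNA that an antibody pulls down with its protein), and MACS called 1578 BMAL1 peaks over Input. All 1578 are described here, of 2337 peaks in the series, where the other 759 came from a CLK antibody. The BMAL1 ChIP (rabbit antibody from Abcam), the CLK ChIP and the Input all came from 1 extract of C57BL/6 liver nuclei, and the Input is that chromatin without immunoprecipitation. The mice were adults of 3 to 6 months, and the labels give no engineered allele. They were entrained to 12 h of light and 12 h of darkness and killed at ZT8, 8 h after lights on. Each antibody gave 1 library, so no value has a replicate, no test between conditions was possible, and the intervals cover counting error among peaks only. Whole liver was used, so binding in hepatocytes and in other liver cells cannot be told apart.

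BMAL1 is a basic helix-loop-helix protein that pairs with CLK (CLOCK) or NPAS2 and binds the e-box, a short palindrome in DNA. The pair drives the Per and Cry genes, whose proteins feed back on it, and the Nr1d genes, which encode the REV-ERB repressors. It also drives Dbp, Tef and Hlf, which encode PAR bZIP activators that carry the rhythm on to other genes through a second element, the D-box. In the liver, genes of glucose, lipid and amino acid metabolism follow the same daily cycle.

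The strongest peaks lay at clock genes, and most of them held the e-box CACGTG, a hexamer that reads the same on both strands, close to the summit. The sequences below are the plus strand of mm9 (NCBIM37) around the CACGTG nearest the summit, for the 12 peaks of highest score that had it within 100 bp. The hexamer was required for this choice, so its presence in these runs is not a result, and the contacts of BMAL1 with single bases were not measured. Capitals mark CACGTG, and the run at Tef is shorter because the annotation places an untranslated region there.
Nr1d1, chr11:98635146-98635205: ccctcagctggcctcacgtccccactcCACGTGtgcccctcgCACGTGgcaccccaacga
Gm129, chr3:95686177-95686236: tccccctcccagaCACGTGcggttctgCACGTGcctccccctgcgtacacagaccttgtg
Nr1d1 upstream, chr11:98644829-98644888: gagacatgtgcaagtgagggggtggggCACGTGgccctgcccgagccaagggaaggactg
Tef, chr15:81641472-81641501: ctgctgccgctcCACGTGaccctcggggct
Dbp, chr7:52963055-52963114: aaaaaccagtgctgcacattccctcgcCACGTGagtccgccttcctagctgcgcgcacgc
Per1, chr11:68908358-68908417: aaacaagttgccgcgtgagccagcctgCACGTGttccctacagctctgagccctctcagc
Nr1d2, chr14:19071057-19071116: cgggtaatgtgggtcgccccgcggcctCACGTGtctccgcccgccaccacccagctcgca
AK036974, chr5:149806785-149806844: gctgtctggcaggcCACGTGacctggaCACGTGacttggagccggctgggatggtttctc
Cry2, chr2:92264050-92264109: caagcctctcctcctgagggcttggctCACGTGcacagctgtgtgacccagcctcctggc
Mtss1, chr15:58831156-58831215: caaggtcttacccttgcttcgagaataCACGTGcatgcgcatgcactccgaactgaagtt
Phf17, chr3:41368535-41368594: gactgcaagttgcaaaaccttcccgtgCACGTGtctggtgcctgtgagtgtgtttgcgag
Hlf, chr11:90279398-90279457: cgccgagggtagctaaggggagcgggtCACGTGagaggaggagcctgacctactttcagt
At Nr1d1, Gm129 and AK036974 a second copy lay within the run shown. The distance from the summit to the centre of the nearest copy was 3.5 bp at Nr1d1, 6.5 bp at Per1 and 34.5 bp at Tef, and it was 67.5 bp at the upstream Nr1d1 peak.

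The BMAL1 library held 28920754 mapped tags, of which 25217144 remained once MACS had dropped duplicates, and the Input held 18846303 before and 18206506 after that step. The peaks held 47224 tags, or 0.187% of the remaining BMAL1 tags, on 795858 bp (0.0300% of the assembled chromosomes). A median peak held 23 tags (95% interval 22 to 23) on 465.5 bp (458 to 474), which is 50.4 tags per kb. Tags ranged from 14 to 382 and widths from 206 to 3369 bp. The 20 peaks of highest score, 1.27% of all peaks, held 6.93% of the tags in peaks.

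Support for most peaks was close to the limit of the caller. The score is the p-value of MACS as its negative log10 multiplied by 10, peaks were called from a score of 50, and the median score was 59.5 (58.7 to 60.7). A score of at least 100 was given to 233 peaks, or 14.8% (exact Clopper-Pearson interval 13.1% to 16.6%). The fold over the local background had a median of 6.80 and a range from 3.33 to 36.9. The FDR, a percent that the caller estimates by exchanging ChIP and Input, was at most 5% for 752 peaks and reached 10.9%. The fold also showed what each peak was measured against. For 471 peaks (29.8%) it was a whole number of tags over the genome-wide background of 1.63 tags, with a tolerance of 0.00814 tags, so that the local Input did not raise the background there. The commonest fold, 6.76, was given to 100 peaks and equals 11 tags over that background.

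Tags and width rose together (Spearman rho 0.90 across 1578 peaks, which share 1 library and 1 Input). The score followed the tags (rho 0.74) more closely than the width (rho 0.56), and fold and width had a rho of 0.18. A handful of peaks stood away from this line.

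**Figure D1:**
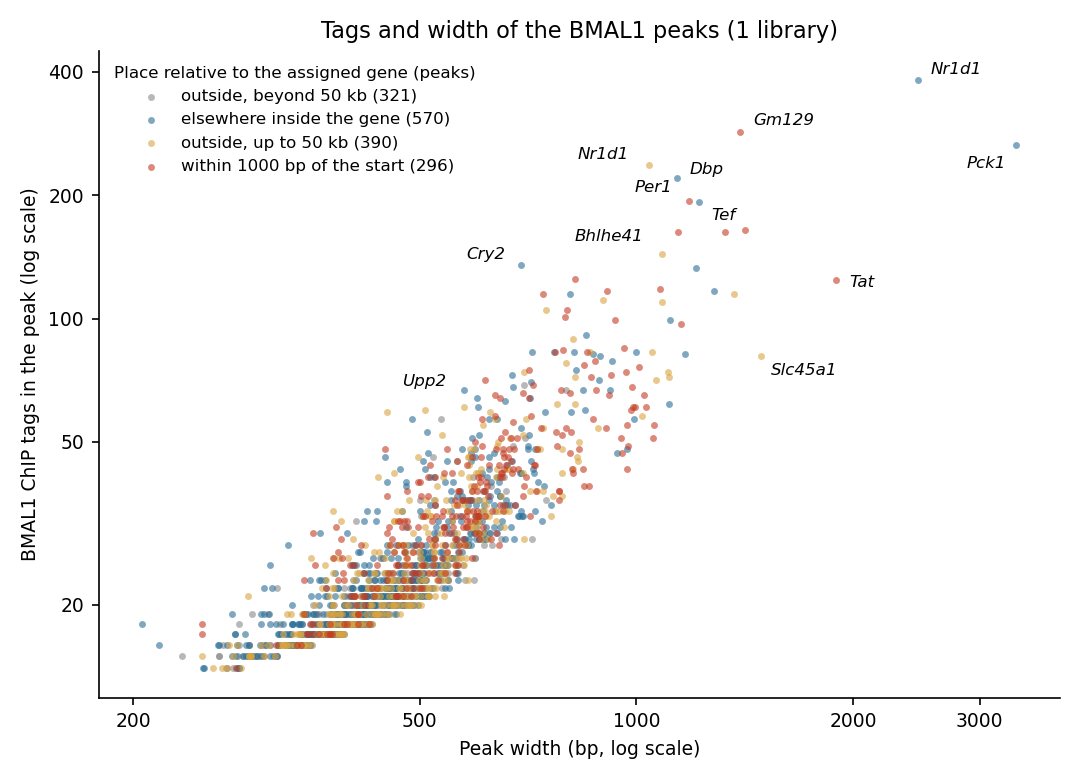
Each point is a BMAL1 peak, with its width in bp on the horizontal axis and its tags on the vertical axis, both on log scales, coloured by place relative to the assigned gene. Tags rise with width from 14 to 382. Nr1d1, Gm129, Dbp and Per1 lie above the bulk of the points at their width, and Pck1 (3369 bp), Tat (1897 bp) and Slc45a1 (1490 bp) lie to its right.

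Clock genes held the highest scores. Nr1d1, which encodes REV-ERB alpha, had the peak of highest score, 2037, with 382 tags and a fold of 36.9 at chr11:98634814-98637273, in an intron. Another Nr1d1 peak lay 8215 bp from the start, with 237 tags on 1041 bp and a score of 1326, the highest density of all peaks at 228 tags per kb. A smaller peak inside the gene had a score of 255.0 and 57 tags. Nr1d2, which encodes REV-ERB beta, had 1 peak within 1000 bp of its start with a score of 870.4, 163 tags and a fold of 34.6. Thus 3 of the 8 highest scores belonged to the REV-ERB pair of genes.

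Dbp carried 3 peaks side by side. Their scores were 1052 (220 tags), 597 (163 tags) and 541 (125 tags), at 2652, 284 and 784 bp from the start site of the assigned transcript. Tef had a score of 1149 and 193 tags at 8237 bp from the assigned start, and a second peak at 15920 bp with a score of 144. Hlf had its strongest peak 27288 bp from the start, with a score of 479 and 3 copies of CACGTG, and a weaker peak at the start itself (score 146, 49 tags). All 3 PAR bZIP genes thus had peaks of score above 100, and at Hlf the distal peak was the stronger.

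Genes of negative feedback also had strong peaks. The Per1 peak at chr11:68907897-68909078 held 194 tags with a score of 1018, and a second peak inside the gene held 73 tags with a score of 286. Per2 had a score of 602 with 165 tags at 145 bp from the start. Cry2 had a score of 591 and 135 tags in an intron 10162 bp from the start, at 195 tags per kb. Cry1 and Per3 were lower, with scores of 219 and 202 and 74 and 66 tags. Gm129, now called Ciart and known as a repressor of the CLK and BMAL1 pair, held 286 tags with a score of 1492 at 243 bp from its start. Bhlhe41 (Dec2), a repressor that binds e-boxes, had 3 peaks with scores of 877, 229 and 122. Its paralog Bhlhe40 (Dec1) had a score of 126 at its start, and a peak of score 479 assigned to the transcript AK042445 had Bhlhe40 as its nearest GENCODE start, 1151 bp downstream of the summit.

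Other clock-linked genes had weaker peaks. Nfil3, the repressor that competes for D-boxes, had a score of 125. Klf15, a Krüppel-like transcription factor, had 148 and Usp2, a deubiquitinase, 145. Por, the reductase that serves the cytochromes P450, had 2 peaks with scores of 174 and 90.1. Nampt, an enzyme of NAD synthesis, had 99.3, and Klf9 had 77.5. Wee1, a cell cycle kinase, had 61.5, Ppara had 67.3 and 53.5, and Rora and Rorb had 50.6 and 53.0, near the cutoff. The scores of these genes thus ran from the lowest to the upper part of the range of all peaks.

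In all, 25 of 38 listed clock genes had a BMAL1 peak (65.8%, exact interval 48.6% to 80.4%), and 17 had one with a score of at least 100. Of the 25, Id2 and Rora counted through peaks 324921 and 194278 bp from their starts. Over all 22238 protein-coding symbols of the annotation the shares were 5.22% with a peak and 0.832% with a score of at least 100. The 38 peaks of the clock list had a median score of 161 (122 to 479), 57 tags and 693 bp, beside 59.5, 23 tags and 465.5 bp for all peaks. The 12 listed genes with no peak by assignment or by the nearest GENCODE start included Arntl, which encodes BMAL1 itself, Clock, Npas2, Csnk1d and Csnk1e. The list was chosen with these peaks known, so its share is a description.

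BMAL1 peaks at metabolic genes were of middle strength, and glucose metabolism had the strongest. Of 45 listed glucose genes, 10 had a peak (22.2%, 11.2% to 37.1%) and 7 had a score of at least 100, with a median score of 103 over 14 peaks. Over all protein-coding genes the shares were 5.22% with a peak and 0.832% with a score of at least 100. Pfkfb3, which makes the activator of phosphofructokinase, had the highest score of the list, 277, with 60 tags 33535 bp from its start. Gys2, the liver glycogen synthase, had 2 peaks with scores of 243 and 94.8. Gbe1, the branching enzyme, had 3 peaks with scores of 103, 81.9 and 66.3, and Ppp1r3c, which targets a phosphatase to glycogen, had 147. Pfkl, a phosphofructokinase, had 149 within 1000 bp of its start. Pcx, Slc2a2 and Ldha had scores of 76.6, 69.0 and 68.0.

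Pck1 and Tat, which encode enzymes of gluconeogenesis and tyrosine breakdown, had many tags spread over long regions. The Pck1 peak at chr2:172978549-172981917 was the widest of all, 3369 bp, and its 265 tags ranked 3 of 1578. Its fold was 4.54, which ranked 1547, and its score was 199. Tat had 124 tags on 1897 bp with a fold of 4.63 and a score of 116. In contrast, Nr1d1 packed 382 tags into 2460 bp at a fold of 36.9. Of the 50 peaks with most tags, 15 were outside the 50 of highest score. Those 15 had a median fold of 8.61 beside 17.4 for the other 35, and CACGTG lay near the summit of 5 of 15 beside 25 of 35.

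Lipid genes had 11 of 67 members with a peak (16.4%, 8.49% to 27.5%), 4 of them with a score of at least 100. The shares over all protein-coding genes were 5.22% with a peak and 0.832% with such a score. Chka, a kinase of phosphatidylcholine synthesis, had 120. Dgat2, which makes triglycerides, had 112 and Pnpla3, a lipid droplet protein, 104. Fads2, a fatty acid desaturase, had 96.1. Among amino acid and one-carbon genes 11 of 47 had a peak (23.4%), beside 5.22% of all protein-coding genes. The highest scores there were at Mthfd1l (156), an enzyme of mitochondrial folate metabolism, at the alanine aminotransferase Gpt (144), and at Ahcy (129), which clears S-adenosylhomocysteine. Bcat2, Alas1, Ass1 and Arg1 had scores of 108, 73.6, 63.7 and 58.7.

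Nuclear receptors and cofactors had 10 of 45 members with a peak (22.2%, 11.2% to 37.1%), but only Hnf4a (133) and Nr3c2 (108) had a score of at least 100. Of all protein-coding genes, 5.22% had a peak and 0.832% had one with a score of at least 100. Nr1h4, the bile acid receptor, had 80.6 and Ppargc1b 79.3, and Esr1, Rarb, Esrrg, Nr2f2, Esrra and Rxra had between 51.4 and 69.6 at their strongest peak. The insulin, growth factor and MAPK list had 8 of 57 (14.0%, 6.26% to 25.8%, beside the same 5.22%), none with a score of at least 100. Foxo3 was its highest with 72.2, followed by Irs1 with 65.8. Its median of 51.9 was below the 59.5 of all peaks.

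Among the other groups, the shares of drug metabolism, chromatin, cell cycle and plasma protein genes were at or below 6.12%, beside 5.22% of all protein-coding genes. Drug metabolism had 3 of 49 (6.12%), among them Nfe2l2 (125), a regulator of the oxidative stress response, and Abcc2 (70.0), an export pump. By symbol, 2 of 98 cytochrome P450 genes had a peak (2.04%, 0.248% to 7.18%). Chromatin regulators had 3 of 50, with Hdac11, a histone deacetylase, at 303, Kdm6b at 107 and Smarca2 at 74.2. The cell cycle list had 2 of 45 by assignment, Cdk4 (109) and Ccne1 (81.8). A peak of score 120 assigned to AK080292 had Ccne2, also on that list, as its nearest GENCODE start. Ubiquitin and autophagy genes had 5 of 53 (9.43%), with Usp36 at 187 and 116, Bnip3 at 106 and Usp28 at 87.9. Heat shock and RNA-binding genes had 4 of 26 (15.4%, 4.36% to 34.9%), led by Pan3 (120), a deadenylase subunit, and Hspe1 (108), a mitochondrial chaperone. The housekeeping list had 2 of 25, Ppia (63.3) and Actg1 (60.1).

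Alb, which encodes albumin, was the sole member of 50 plasma protein and hepatocyte genes with a peak (2.00%, 0.0506% to 10.6%), an interval that covers the 5.22% of all protein-coding genes. It had 3, with scores of 82.3, 62.7 and 54.3, and none had CACGTG within 100 bp of its summit. Defining genes of other liver cell types had 2 of 26, Hbb-b1 (71.6) and Krt7 (53.5). Their share of 7.69% (0.946% to 25.1%) also has an interval that covers the 5.22%. No listed gene of Kupffer, endothelial or stellate cells had a peak, but these genes were too few to tell this from the share over all genes. Among gene families taken by symbol after the peaks were seen, solute carriers had 33 of 353 (9.35%, 6.52% to 12.9%) with Slc27a2 the strongest. Olfactory receptors had 9 of 1113 (0.809%, 0.370% to 1.53%), cytosolic ribosomal proteins 0 of 83 (up to 4.35%) and proteasome subunits 0 of 40 (up to 8.81%). Of these, the proteasome interval covers the 5.22% of all protein-coding genes.

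**Figure D2:**
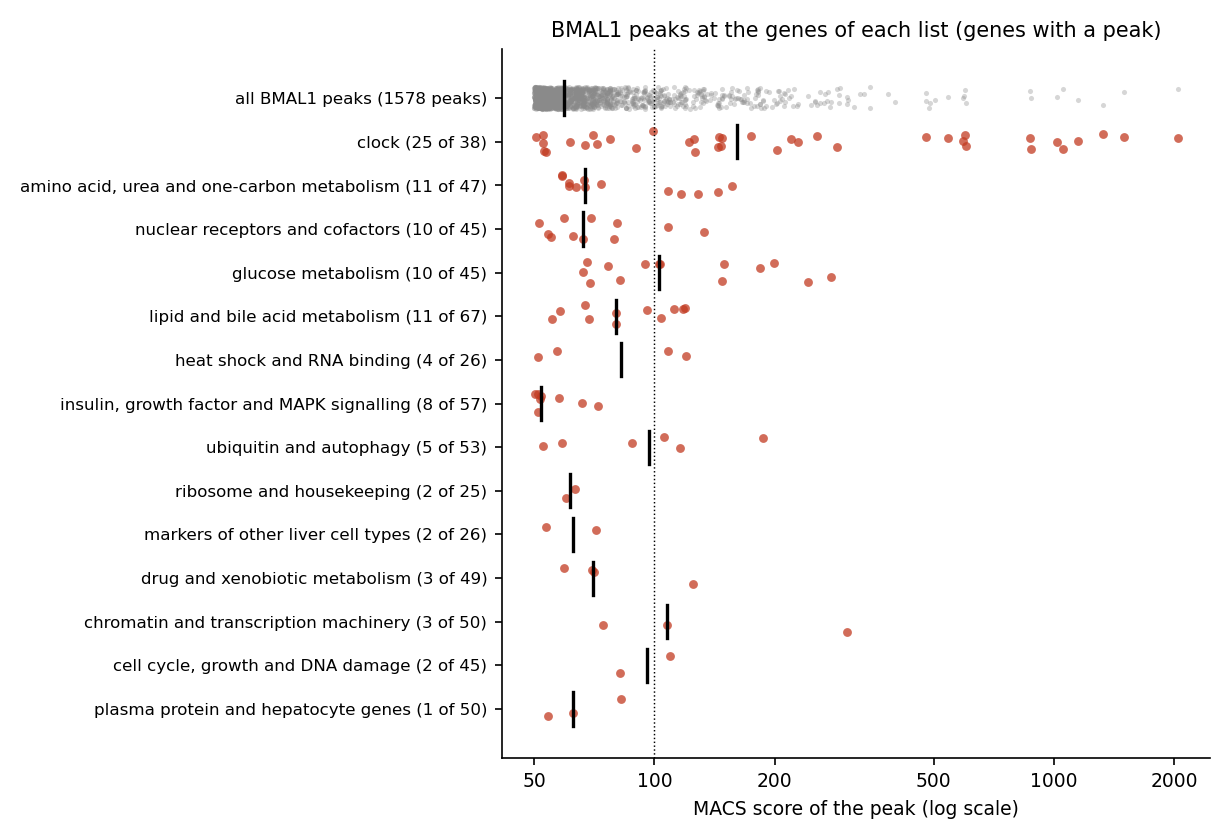
Scores of BMAL1 peaks (horizontal, log scale) at the genes of each list, with the number of genes that had a peak in brackets. Points are peaks, spread vertically for sight, black bars are medians and the dotted line is a score of 100. The clock list reaches from 50.6 to 2037 with a median of 161. Every other list stays at or below 303.

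Relative to the assigned genes, peaks fell into 4 places. A peak centre lay within 1000 bp of the start of the assigned gene in 296 peaks (18.8%), elsewhere inside the gene in 570 (36.1%), outside the gene and up to 50 kb from the start in 390 (24.7%) and farther in 321 (20.3%). For 1 peak the listed gene, Polr3k, was on another chromosome. Peaks at start sites were larger. Their medians were 33.5 tags (32 to 37), 574 bp (557 to 597) and a score of 76.9, beside 22 tags, 454 bp and 58.6 elsewhere inside the gene. Beyond 50 kb the medians were 19 tags, 413 bp and a score of 56.1.

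By the GENCODE M1 annotation the summit was intergenic in 777 peaks, in an intron in 612, in an untranslated region in 91 and in a coding exon in 69. A score of at least 100 was given to 23.1% of summits in untranslated regions, 14.9% of those in introns, 13.9% of intergenic ones and 8.70% of those in coding exons. The exact intervals of these shares overlapped. The median score was 68.5 (61.8 to 71.5) in untranslated regions, 59.9 in introns, 58.5 (57.6 to 59.8) outside genes and 58.5 in coding exons, whose interval overlapped that of untranslated regions.

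The place of a peak changed with the transcript, and with the point of the peak, that it was measured from. GENCODE starts, which include more transcripts, lay within 1000 bp of 370 summits, against 296 by the assigned start. Of 89 peaks near a GENCODE start only, 59 had a start of the assigned gene as the nearest, and 23 of the 89 had a score of at least 100. That start was not always another one, because GENCODE distances begin at the summit and the listed distances do not. At Pck1 the listed distance was 1562 bp, while the summit lay 392 bp from the assigned start and 383 bp from the GENCODE start. Below, a negative position is upstream of the start. Tef moved from 8237 bp to -24 bp, and the strongest Dbp peak from 2652 bp to -145 bp. Phf17, a chromatin protein now called Jade1, moved from 9057 bp to -257 bp. Upp2, a liver uridine phosphorylase, went from 187638 bp to 79 bp, and the second Per1 peak from 3502 bp to -194 bp. Several of the strongest peaks inside genes thus lay at an alternative start.

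Near starts, summits gathered just upstream. Of the 370 summits, 231 (62.4%) were upstream, with a median position of -39.5 bp and quartiles at -194 bp and 62 bp. Within 200 bp lay 213 (57.6%). The 200 bp before the start held 143 summits and the 200 bp after it 70, and no other 200 bp bin held more than 43. Starts of both strands were present within 1000 bp for 54 of the 370 (14.6%).

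**Figure D3:**
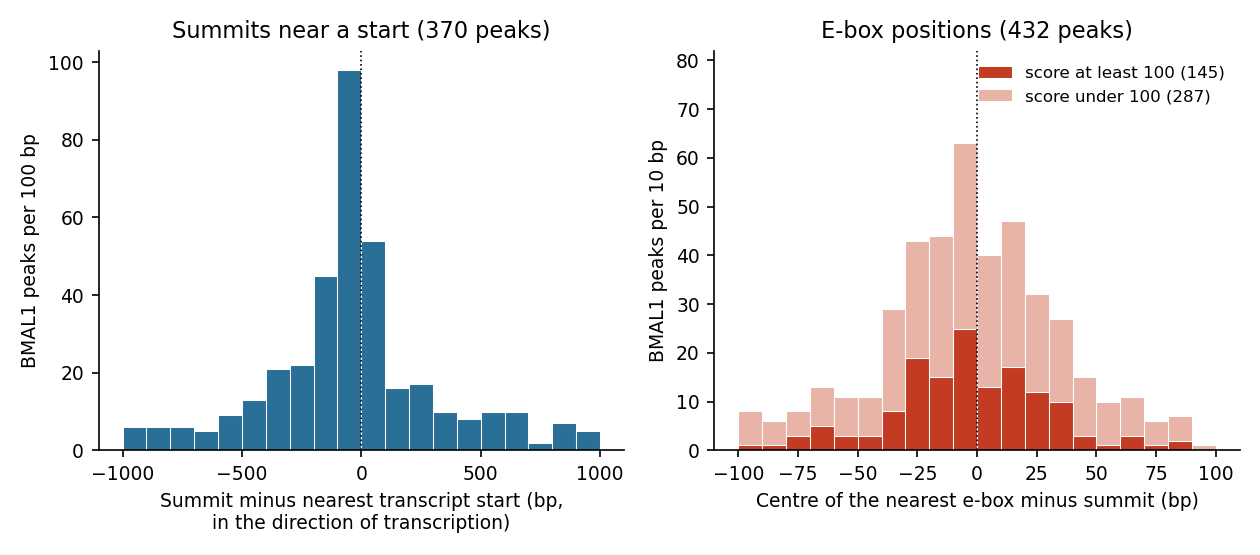
Left, position of 370 summits relative to the nearest GENCODE transcript start (bp, upstream negative), counted per 100 bp. Right, position of the nearest e-box relative to the summit in 432 peaks (bp), counted per 10 bp and stacked by score. Summits cluster just upstream of the start, and e-boxes within 50 bp of the summit (351 of 432).

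CACGTG within 100 bp of the summit was found in 432 peaks, or 27.4% (25.2% to 29.6%). The bases 400 to 500 bp away on either side held it in 3.11% of peaks, windows of 201 bp over the whole genome in 1.96%, and windows at the starts of protein-coding genes in 5.56%. The hexamer lay at a median of 22.5 bp from the summit, and in 351 of 432 peaks (81.3%) it was within 50 bp. A window held 1 copy in 338 peaks, 2 in 76 and 3 or more in 18. The median score rose from 57.1 with no copy to 70.8 with 1, 93.3 with 2 and 106 with 3 or more.

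The share with the e-box climbed with the score. It was 12.2% at scores of 50 to 55, 17.4% at 55 to 60, 25.6% at 60 to 75, 45.9% at 75 to 100, 58.8% at 100 to 200 and 71.4% (58.7% to 82.1%) at 200 and above. The share within 1000 bp of a start rose over the same groups from 7.63% to 41.3%. In contrast, the share inside the assigned gene stayed between 39.4% and 43.5%. GC content within 100 bp rose as well, from a median of 51.2% to 64.2%, and its part in these shares was not tested.

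**Figure D4:**
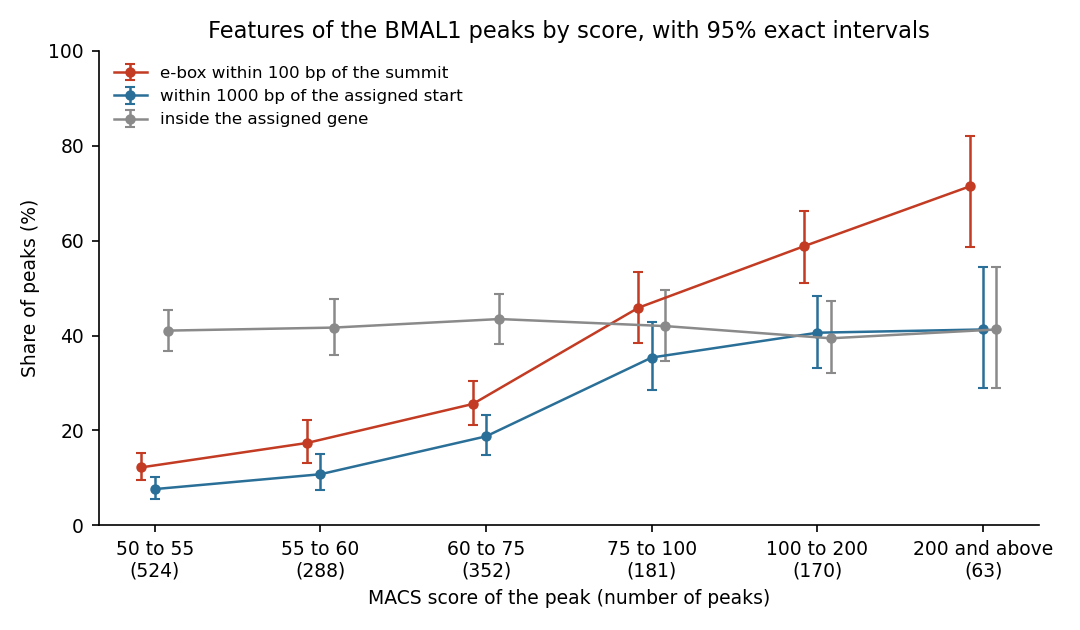
Share of BMAL1 peaks (vertical, %) with an e-box within 100 bp of the summit, within 1000 bp of the assigned start, and inside the assigned gene, in 6 groups by score (horizontal). Bars are 95% exact intervals and the numbers of peaks stand in brackets. The e-box share rises from 12.2% to 71.4% and the share inside genes stays near 40%.

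The e-box share differed with place among weak peaks, while among strong peaks the intervals overlapped. With a score of at least 100, the share was 62.1% of 95 peaks at starts, 63.4% of 71 elsewhere in genes and 65.5% of 55 outside up to 50 kb. It was 41.7% of 12 peaks farther out, with an interval from 15.2% to 72.3% that covers the other shares. Under a score of 100, it was 53.2% (46.1% to 60.3%) of 201 peaks at starts, 20.6% elsewhere in genes, 18.8% up to 50 kb and 4.53% of 309 farther out. The flanks of these farther peaks held it in 1.62% (0.527% to 3.74%). GC content of the weak peaks was 65.7% at starts and 49.8% farther out.

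The bases next to the hexamer had other shares near summits than over all copies in the genome. Around 548 copies of CACGTG near summits, GTCACGTG in either orientation was present at 21.7% (18.3% to 25.4%), beside 9.63% of 262649 copies in the genome. GCCACGTG was present at 20.8% beside 11.3%, and CGCACGTG at 10.6% beside 3.00%. At the other end, TTCACGTG was present at 5.84% beside 14.2% and TACACGTG at 4.56% beside 10.7%. The decamer TCCACGTGAA, which holds TTCACGTG on its other strand, alone made up 12407 of the genome copies and 1 of the 548. The genome copies were not matched to the summits for GC content, for repeats or for unique mapping, and the part of these in the differences was not tested. The Tef, Hlf and AK036974 sequences above hold the first of these forms, in AK036974 at both copies.

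Among the 233 peaks scoring 100 or more, 88 had no CACGTG within 100 bp, and 20 of these held it elsewhere in the peak. For 11 of the 88 not even a hexamer with 1 mismatch lay within 50 bp of the summit, and in the others it was most often CACATG (32 peaks), CACGGG (20), CACCTG (19) and CACGCG (19), counted in either orientation. Short words such as these are common. In windows of 201 bp, CACCTG was at 27 of the 88 summits (30.7%, 21.3% to 41.4%), beside 14.1% of flanks of all peaks and 11.9% of the genome. No such background was counted for CACATG or CACGGG. The next runs show the nearest variant, in capitals, at the strongest 3 such peaks, the first with AACGTG 0.5 bp from the summit.
Bhlhe41, chr6:145814878-145814937: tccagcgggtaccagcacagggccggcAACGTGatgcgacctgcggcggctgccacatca
Per2, chr1:93355879-93355908: cacatagtggaaAACGTGaccgcgcgcgct
Dbp, chr7:52960397-52960456: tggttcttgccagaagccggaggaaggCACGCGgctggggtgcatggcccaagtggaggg
The run at Per2 is shorter because it lies in an untranslated region. The Per2 variant was 21.5 bp from the summit and the Dbp variant 1.5 bp. The Bhlhe41 peak also held CACGTG, 372.5 bp from its summit, while these Per2 and Dbp peaks held none. Prr18 (score 504) and Pck1 had no hexamer with 1 mismatch within 50 bp.

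Over all peaks the variant CACGTT was within 100 bp of 7.67% of summits beside 3.55% of flanks, and CACGCG of 8.81% beside 2.15%. With a score of at least 100 these were 13.3% and 20.2%. CACGCG was in 29.7% of peaks at starts, where CpG-rich words are common, and in 9.63% of all windows at starts of protein-coding genes.

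A D-box word, TTATGTAA, the element of the PAR bZIP proteins, was within 100 bp of 12 of the 233 strong peaks (5.15%, 2.69% to 8.82%), beside 0.951% of flanks, 1.05% of genome windows and 0.502% of gene starts. Among the 88 strong peaks without CACGTG it was in 7 (7.95%, 3.26% to 15.7%). The 12 include Nr1d2, Coq10b, Itpr2 and Nrg4, which also held CACGTG, and Fam76a, Igsf8, Usp2 and Serping1, which did not. At Fam76a and Serping1 it lay within 2 bp of the summit, and these runs show it in capitals.
Fam76a, chr4:132478606-132478665: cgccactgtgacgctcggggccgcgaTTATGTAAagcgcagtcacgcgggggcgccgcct
Serping1, chr2:84602177-84602236: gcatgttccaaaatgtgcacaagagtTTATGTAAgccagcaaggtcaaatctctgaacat
The Fam76a peak had a score of 270.5 and the Serping1 peak 105. The Fam76a run also holds the e-box variant CACGCG, in lower case, 14.5 bp from the summit.

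Other promoter and liver words were counted on both strands in the same windows. The SP1 box GGGCGG was in 61.5% of peaks within 1000 bp of a start beside 40.0% of windows at protein-coding starts, and in 6.79% of the other peaks. The ETS word CCGGAAGT, present at 4.22% of protein-coding starts, was in 2 of 296 peaks at starts (0.676%). TATAAA was in 4.75% of summit windows beside 14.0% of flanks and 19.3% of the genome. HNF4 (CAAAGTCC) was in 1.46% of summit windows beside 0.507% of flanks, 0.761% of the genome and 0.838% of protein-coding starts. C/EBP (TTGCNNAA) was in 8.49% beside 8.17% of flanks and FOXA (TGTTTAC) in 3.30% beside 2.28%. The intervals of summits and flanks overlapped for all 3 of these liver words.

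**Figure D5:**
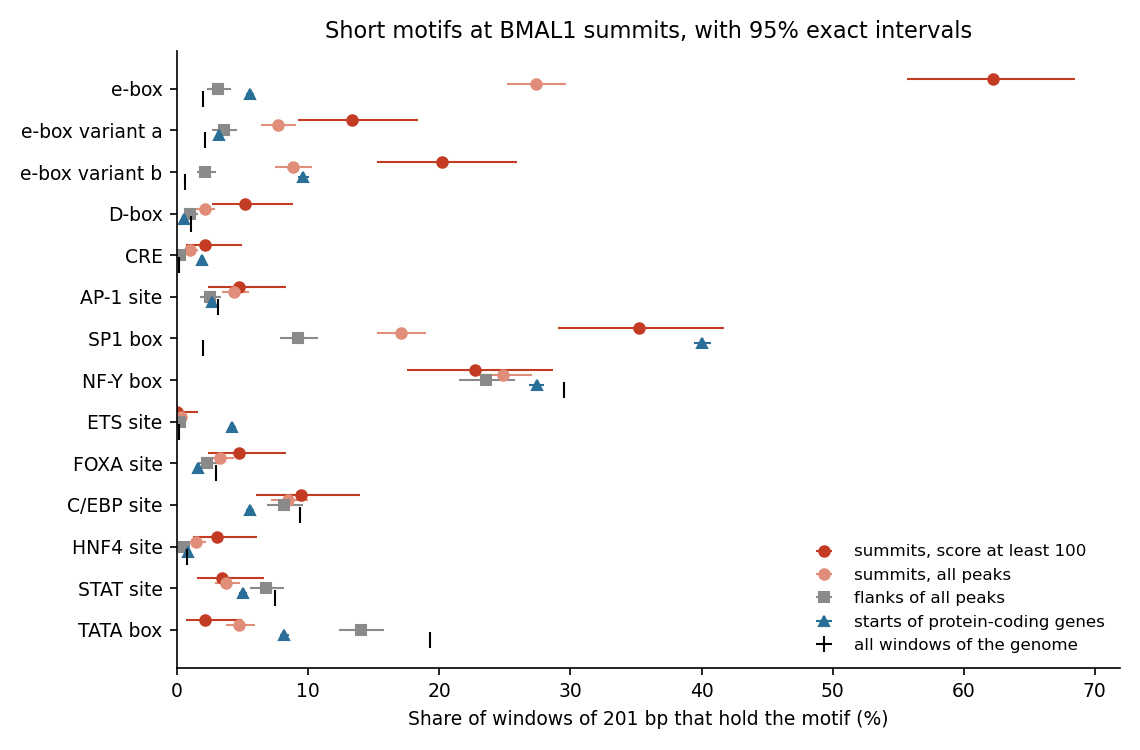
Share of windows of 201 bp (horizontal, %) that hold each short motif, for summits of score at least 100, all summits, flanks, starts of protein-coding genes and all genome windows, with 95% exact intervals. The variants a and b of the e-box are those ending in TT and CG. The e-box reaches 62.2% of strong summits and is under 6% at flanks, gene starts and in the genome, and the D-box reaches 5.15%.

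The peaks that had a gene symbol, all but 52, were assigned to 1403 symbols. Of these, 109 (7.77%, 6.42% to 9.30%) had 2 or more peaks and 13 had 3 or more. The clock genes Nr1d1, Dbp, Bhlhe41 and Hlf were 4 of the 13. Azin1, which regulates polyamine synthesis, had 4 peaks with scores from 54.2 to 130.0, from 246 to 87390 bp from its start. Itpr1, a calcium channel of the endoplasmic reticulum, had 3 with scores of 134, 116 and 104. Gbe1, Alb, Eepd1 and Zfp407 mixed stronger and weaker peaks. In Ctnnd2, Dlgap2 and Sntb1, genes best known from neurons or muscle, all 9 peaks had scores between 51.7 and 61.1.

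Another BMAL1 peak within 10 kb was found for 84 peaks, while the median gap between neighbours was 392680 bp. Such a neighbour was present for 28.6% (17.9% to 41.3%) of peaks with a score of at least 200 and for 2.10% (1.05% to 3.73%) of those from 50 to 55. The peaks farthest from an assigned start were all low, with 15 to 20 tags. B230118H07Rik was 2376618 bp away with a score of 67.9, and Cdh6 1900830 bp away with 54.7. The X chromosome held 5 peaks and chromosome 1 held 99.

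At a score of 200 or more, several genes outside the circadian core stood beside it. Mtss1, an actin-binding protein, had 133 tags and a score of 491 in an intron 82387 bp from its start. Prr18 had 105 tags and a fold of 28.4. Nup50, a nuclear pore protein, had 117 tags and a score of 399 at 354 bp from its start. Upp2 had 67 tags on 577 bp with a score of 384. AK036974, whose nearest GENCODE start belongs to Katnal1, a subunit of a microtubule-severing enzyme, had a score of 594. More than 50 kb from the assigned start and outside the gene, the highest were Kbtbd8 (328, 69 tags), Rragd (201, 57 tags) and AK049041 (170.1, 45 tags).

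At least 1 bp was shared with a CLK peak by 211 BMAL1 peaks (13.4%). The CLK and BMAL1 lists were called against the same Input, so the overlap is given as a count only, with each list's own values side by side. Nr1d1 had a score of 2037 for BMAL1 and 626 for CLK, Per1 had 1018 and 701, and Cry2 had 591 and 121. At Pck1 the scores were 199 for BMAL1 and 666 for CLK, and at Tat 116 and 537. At other metabolic genes the BMAL1 score was the higher, with 277 and 121 at Pfkfb3 and 243 and 138 at the stronger Gys2 peak. Among clock genes, Por had 174 for BMAL1 and 222 for CLK, and Wee1 had 61.5 and 91.1. Either score could thus be the higher in both groups, while over all 211 shared peaks the BMAL1 score was the higher at 157. Scores also depend on the depth of each library, and the CLK library was the deeper, with 37371047 mapped tags beside 28920754. Bhlhe41, whose peak was the strongest without CACGTG within 100 bp of the summit, had 877 and 165.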

How the data were processed

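Chromatin of adult mouse liver at ZT8 was sequenced as 36 nt reads after 15 PCR cycles (BMAL1 ChIP, CLK ChIP and Input, 1 library each). The submitters' processing notes name CASAVA 1.6 and Bowtie. The authors kept reads that mapped uniquely to mm9 and called peaks of each ChIP against Input with MACS at a p cutoff of 1.00e-05, with the model set to fold 5 and band width 80, which gave fragments of 122 bp for BMAL1. The deposited list gives, for each peak, the tag count, the score (10 times the negative log10 of the p-value), the fold (the ratio of summit height to the local background) and the FDR as a percent. The deposited table gives the assigned gene, the distance and the location. The authors assigned peaks inside a gene to it and others to the nearest start.

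All 1578 peaks were joined to the table, 1368 by exact position and 210 through CLK:BMAL1 rows that share at least 1 bp. The overlap with CLK peaks was counted from the peak lists and not from this join, and gave 211. No symbol was given for 52 peaks, and 3 symbols were numbers and were left as they stood. Distances are absolute and start at the peak centre; GENCODE M1 distances start at the summit. Motifs were counted on both strands of NCBIM37 within 100 bp of the summit. Shares carry 95% Clopper-Pearson intervals and medians 95% binomial intervals of the order statistics, made with scipy 1.17.1 functions that were tested on simulated data. PCR copies are not independent molecules, so intervals cover counting error only. The peaks, the 14 gene lists, the families and the motifs were chosen with earlier results of these data known. Genes were named by rule: those of the 20 highest scores, up to 6 per list by score, those with 3 or more peaks, the 5 widest, densest and farthest peaks, and the 3 highest and lowest per place. Further clock, metabolic, cell cycle and motif-bearing genes were named after their values were seen. Alternatives were peaks scoring 100 or more, peaks with FDR up to 5%, and other distances, windows, motifs, assignments and overlaps. Some genes are not reported here.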

Additional observations from a re-analysis of the deposited data

How the results depend on the processing

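Of 37 alternative values, 11 stayed within the main interval and 26 moved, and the cause was not tested. The rank correlation has no interval, and its 4 alternatives were counted as moved because they differed at 2 decimals. With a score of at least 100 (233 peaks), the median was 51 tags and 646 bp, 40.8% lay within 1000 bp of a start, 62.2% had CACGTG and 56.2% shared bases with a CLK peak. The rank correlation of tags and width was 0.83, 4.72% of genes had 2 or more peaks, and 44.7% of clock genes had a peak. With an FDR of at most 5% (752 peaks), the values were 32 tags, 545.5 bp, 29.7%, 41.9%, 25.5%, 0.86 and 4.89%, and 31.0% had a score of at least 100. The share near a start was 27.4% at 5000 bp, 15.3% at 500 bp and 23.4% by GENCODE, and 50.8% of summits lay in a GENCODE gene beside 41.6% by the table. The share with CACGTG was 21.9% within 50 bp, 24.7% around the peak centre and 36.4% when CACGTT and CACGCG counted. The rank correlation with width was 0.18 with fold and 0.56 with score in place of tags. Genes with 2 or more peaks were 5.56% when only peaks within 10000 bp of the start or inside the gene counted. Clock genes with a peak were 57.9% at an FDR of at most 5%, and also 57.9% when only peaks within 10000 bp of the start or inside the gene counted. Counting the gene of the nearest GENCODE start, an alternative chosen after seeing the data, gave 68.4% of clock genes. No paired analysis was possible because each group has 1 library and no result comes from a test. With 1 library per side and a median of 23 tags per peak, absence of a peak says only that the cutoff was not reached.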
